A study of Homo sapiens with 20 samples.

Results

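RBM39 depletion was compared with the non-targeting control siNT2 in HEK293T cells, a transformed line derived from human embryonic kidney. The comparison covers all 3946 alternative splicing events that the authors' deposited table lists for it, in 2594 named genes, of 19275 distinct events listed over the series' 7 comparisons. The siRBM39 group held 2 samples transfected with siRNA against RBM39, and the siNT2 group held 2 samples transfected with a non-targeting siRNA. Both were lysed 48 hours after transfection, and polyadenylated RNA was sequenced as stranded libraries. Nothing in the labels says that the 2 samples of a group were separate cultures.

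RBM39 is an RNA-binding splicing factor of the nuclear speckle, related to the U2AF subunit U2AF2 and carrying a U2AF-homology motif that binds SF3B1 and other early spliceosome proteins. It acts when the 3' end of an intron is recognised, the step in which U2AF2 binds the polypyrimidine tract, U2AF1 reads the terminal AG and the SF3b complex settles on the branch point. RBM39 is also the protein that aryl sulfonamide drugs such as indisulam send for degradation through the ubiquitin ligase receptor DCAF15. The study asked for a functional link between the kinase Aurora-A and splicing regulators.

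Each value is a percent spliced in (PSI), the percent of a gene's transcripts that include a segment, given by the authors as the mean of a group. Single-sample values, replicate spread and read depth per event were not used here, so no event has an SD and none was tested. The table lists only events that changed by more than 15 points, the smallest at 15.01. Knockdown of RBM39 itself was not checked, as no expression values were used, and no event in RBM39 was listed. A PSI averages over all cells of a culture, so a partial change in every cell and a full switch in some cells cannot be told apart.

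Some exons with the largest changes are shown first, as examples that do not stand for all listed exons. These sequences come from GENCODE release 29 transcripts on GRCh38, are printed 5' to 3', and have in capitals the first base of the exon, directly after the intron's terminal AG. The 6 exons that follow lost inclusion after RBM39 depletion and were among the 12 with the largest falls.
GK5 74-base exon, chr3:142186194-142186267, minus strand: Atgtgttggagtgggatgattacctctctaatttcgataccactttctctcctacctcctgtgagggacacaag
PACRGL 135-base exon, chr4:20712788-20712922, plus strand: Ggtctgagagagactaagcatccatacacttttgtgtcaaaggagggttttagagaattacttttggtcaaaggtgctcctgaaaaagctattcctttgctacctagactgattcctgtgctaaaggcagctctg
MICAL1 89-base exon, chr6:109447875-109447963, minus strand: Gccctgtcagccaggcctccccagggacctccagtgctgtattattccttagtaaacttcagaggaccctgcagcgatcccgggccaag
FCHSD1 88-base exon, chr5:141643001-141643088, minus strand: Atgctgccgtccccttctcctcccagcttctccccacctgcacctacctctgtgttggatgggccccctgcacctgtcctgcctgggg
HDAC1 93-base exon, chr1:32329068-32329160, plus strand: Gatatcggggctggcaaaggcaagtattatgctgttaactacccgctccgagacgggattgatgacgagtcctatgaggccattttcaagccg
AUP1 73-base exon, chr2:74528417-74528489, minus strand: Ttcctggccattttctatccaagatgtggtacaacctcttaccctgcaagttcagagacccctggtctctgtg
All 6 lie wholly in coding sequence of an annotated transcript; 5 of them begin with a purine and the AUP1 exon with a thymine. The next 7 exons gained inclusion, and those of 15, 21, 24 and 27 bases are microexons.
CSNK1G3 24-base exon, chr5:123605339-123605362, plus strand: Ctgccagaaagtgttgaacatgtg
CACNA2D1 21-base exon, chr7:81983314-81983334, minus strand: Caaaaaagggcaaaatgaagg
ADGRL3 39-base exon, chr4:61912719-61912757, plus strand: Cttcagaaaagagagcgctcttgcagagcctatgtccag
STRADA 58-base exon, chr17:63726638-63726695, minus strand: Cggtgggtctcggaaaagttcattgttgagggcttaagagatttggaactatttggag
ASAP2 130-base exon, chr2:9323121-9323250, plus strand: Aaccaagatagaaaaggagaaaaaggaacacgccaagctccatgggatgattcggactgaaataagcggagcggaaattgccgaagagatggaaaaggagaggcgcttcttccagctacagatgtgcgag
ADGRL3 15-base exon, chr4:61730622-61730636, plus strand: Aagtggaacaaaaag
CTAGE5 27-base exon, chr14:39292680-39292706, plus strand: Tttgttgaaggatcacaaatatcagag
In this second set, 4 of the 7 exons begin with cytosine. The matched exons of ATP11A and FAIM, which begin with adenine, and of TPTE2, which begins with thymine, were gained as well and are not shown. The 3 microexons that follow had lower inclusion.
IL17RB 25-base exon, chr3:53848664-53848688, plus strand: Accgttcaatgtggctctgaaactg
HACD1 19-base exon, chr10:17603726-17603744, minus strand: Atagttcactgtttaattg
GRIPAP1 27-base exon, chrX:48998154-48998180, minus strand: Gcactgagcaagagcaagaaagctcag

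Exons were mostly skipped and introns mostly retained. Of 2766 listed exons, 2471 (89.3%; exact Clopper-Pearson 95% interval 88.1 to 90.5) had a lower PSI in siRBM39 than in siNT2, and 295 (10.7%) had a higher one. Of 782 introns, 700 (89.5%; 87.2 to 91.6) were retained more. The list also held 304 alternative 3' splice sites and 94 alternative 5' splice sites, all entered as sites used more in siRBM39, so those 2 types carry no direction. These intervals describe the listed events, which are not independent replicates.

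The median absolute change was 22.4 points for exons, 20.2 for introns, 21.1 for alternative 3' sites and 20.4 for alternative 5' sites. At least 25 points were reached by 1406 events (35.6%). Inclusion crossed 50% downward in 584 exons and upward in 76. For introns, 131 crossed upward and 24 downward. Before depletion, 631 of the lost exons were nearly constitutive, with a siNT2 PSI of at least 95.

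**Figure D1:**
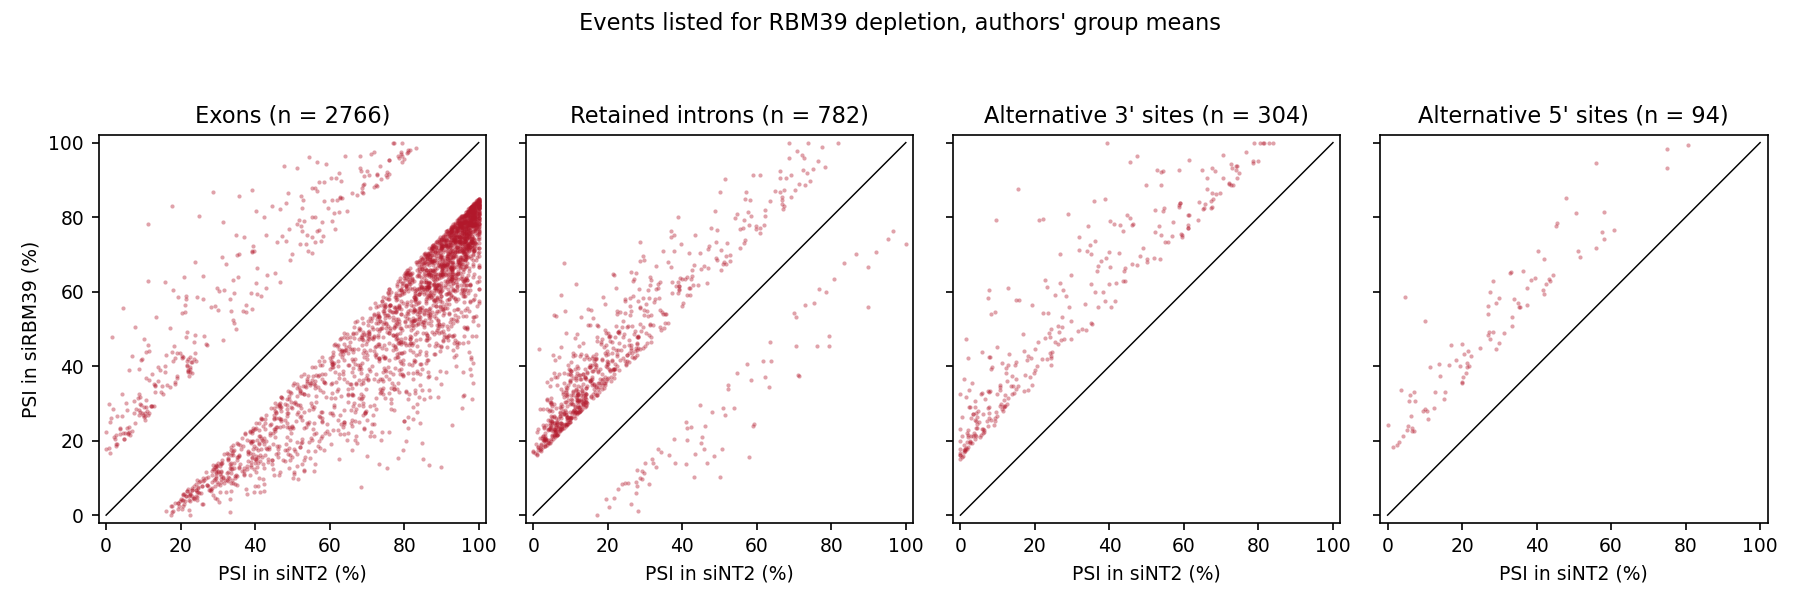
PSI in siRBM39 (vertical axis, %) against PSI in siNT2 (horizontal axis, %) for every listed event, 1 panel per event type, with points standing for the authors' group means and the line for equality. The empty band along the line is the authors' listing threshold; 2471 of 2766 exons lie below it and 700 of 782 introns above it.

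The listing threshold limits the direction that an event can show. An exon with a siNT2 PSI of 95 or more could be listed only as lower, and all 631 such exons were. Within 50 to 80, where either direction was open, 572 of 657 exons were lower, and within 20 to 50 the count was 345 of 440. Below a siNT2 PSI of 20, 109 of 121 exons were higher. For introns with a siNT2 PSI of 50 to 80, 64 of 94 were retained more, and within 20 to 50 the count was 199 of 240.

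The largest fall in the authors' deposited table was a 56-base exon of NRG4, a ligand of the receptor ERBB4, with a PSI of 13.1 in siRBM39 and 90.0 in siNT2. PACRGL, a relative of the parkin co-regulated gene, had its 135-base exon at 14.9 in siRBM39 and 85.0 in siNT2. FCHSD1, an F-BAR and SH3 domain protein, had its 88-base exon at 28.9 in siRBM39 and 95.4 in siNT2. Each of these exons was in most transcripts of control cells and in a minority after depletion.

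A 72-base exon of SFXN2, a mitochondrial sideroflexin, stood at 19.3 in siRBM39 and 84.9 in siNT2. A 51-base exon of UBN2, a subunit of the HIRA histone chaperone complex, stood at 12.6 in siRBM39 and 75.3 in siNT2. WSB1 and FBXO22 are substrate adaptors of ubiquitin ligases: the 114-base exon of WSB1 was at 31.9 in siRBM39 and 95.8 in siNT2, and a 90-base exon of FBXO22, not wholly coding in any annotated transcript, was at 15.3 in siRBM39 and 78.3 in siNT2. AUP1, which recruits a ubiquitin-conjugating enzyme at the endoplasmic reticulum, lost a second exon of 69 bases besides the one shown, at 35.4 in siRBM39 and 98.4 in siNT2.

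**Figure D2:**
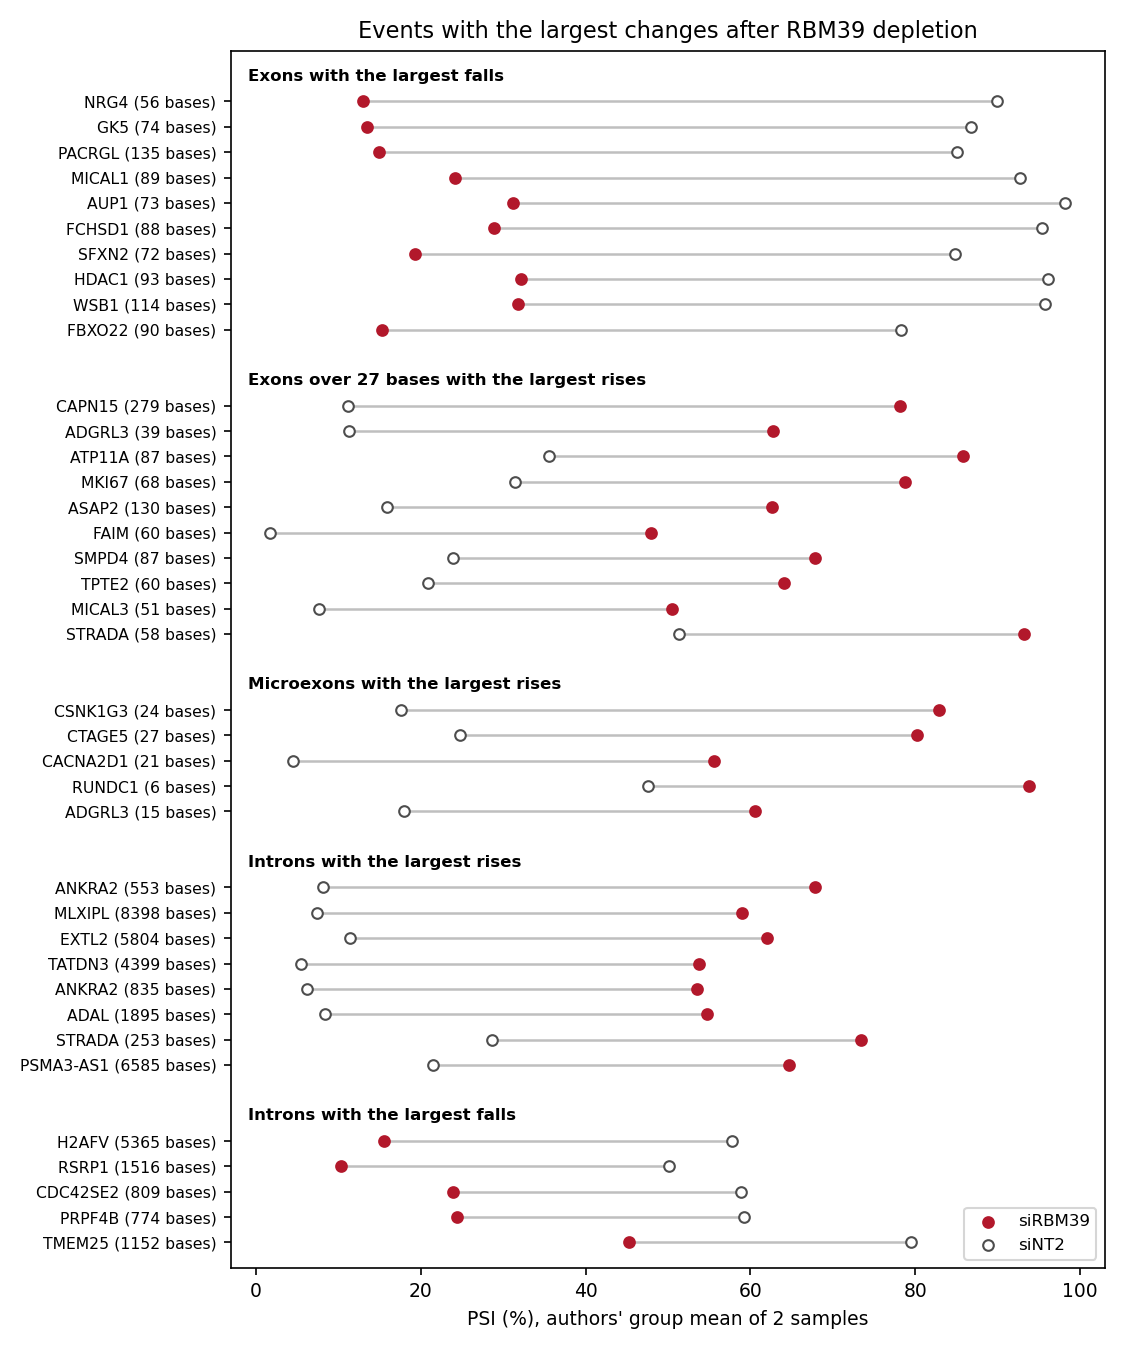
PSI (horizontal axis, %) in siRBM39 (filled points) and siNT2 (open points) of the named exons, microexons and introns with the largest changes; each point is the authors' mean of 2 samples, with no replicate error. The 10 exons at the top lie at or below 32.2 in siRBM39 and at or above 78.3 in siNT2; 2 exons without a gene name are left out of the second block.

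The exons that gained inclusion were fewer. A 279-base exon of CAPN15, a calpain protease, reached 78.1 in siRBM39, against 11.1 in siNT2. MKI67, which encodes the proliferation marker Ki-67, had a 68-base exon at 78.8 in siRBM39 and 31.4 in siNT2. ATP11A, a phospholipid flippase, had an 87-base exon, not wholly coding in any annotated transcript, at 85.8 in siRBM39 and 35.5 in siNT2. All 3 went to the major form after depletion.

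The 130-base coding exon of ASAP2, a GTPase-activating protein of Arf, was at 62.6 in siRBM39 and 15.9 in siNT2. FAIM, an inhibitor of Fas-induced apoptosis, had a 60-base exon at 47.9 in siRBM39 and 1.66 in siNT2. SMPD4, a sphingomyelinase, and MICAL3, an actin-oxidising monooxygenase, had exons at 67.8 and 50.5 in siRBM39, against 23.9 and 7.65 in siNT2. Its paralogue MICAL1 had lost an exon, shown above, so the MICAL genes stood on both sides of the list. A 60-base exon of TPTE2, at 64.0 in siRBM39 and 20.9 in siNT2, has near-identical gene copies, and its value is uncertain.

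Microexons, exons of up to 27 bases that are best known from neurons, ran against the other exons. Of 75 listed microexons, 58 were higher in siRBM39 (77.3%; exact 95% interval 66.2 to 86.2), while 237 of 2691 longer exons were higher (8.81%). The shares of exons that were higher were 13.3% at 28 to 50 bases (36 of 271), 7.16% at 51 to 100 bases and 6.61% above 100 and up to 200 bases. Beyond 200 bases the share was 24.4% (48 of 197).

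Control inclusion differed between these classes, with a median siNT2 PSI of 31.7 for microexons and 85.6 for exons of 51 to 100 bases. Within a siNT2 PSI of 20 to 80, 30 of 35 microexons were higher (85.7%; 69.7 to 95.2). In the same range the count was 23 of 117 at 28 to 50 bases, 49 of 425 at 51 to 100 bases and 46 of 417 above 100 and up to 200 bases. Beyond 200 bases it was 32 of 104 (30.8%). The share of higher microexons was at least as large among events that could be listed either way.

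**Figure D3:**
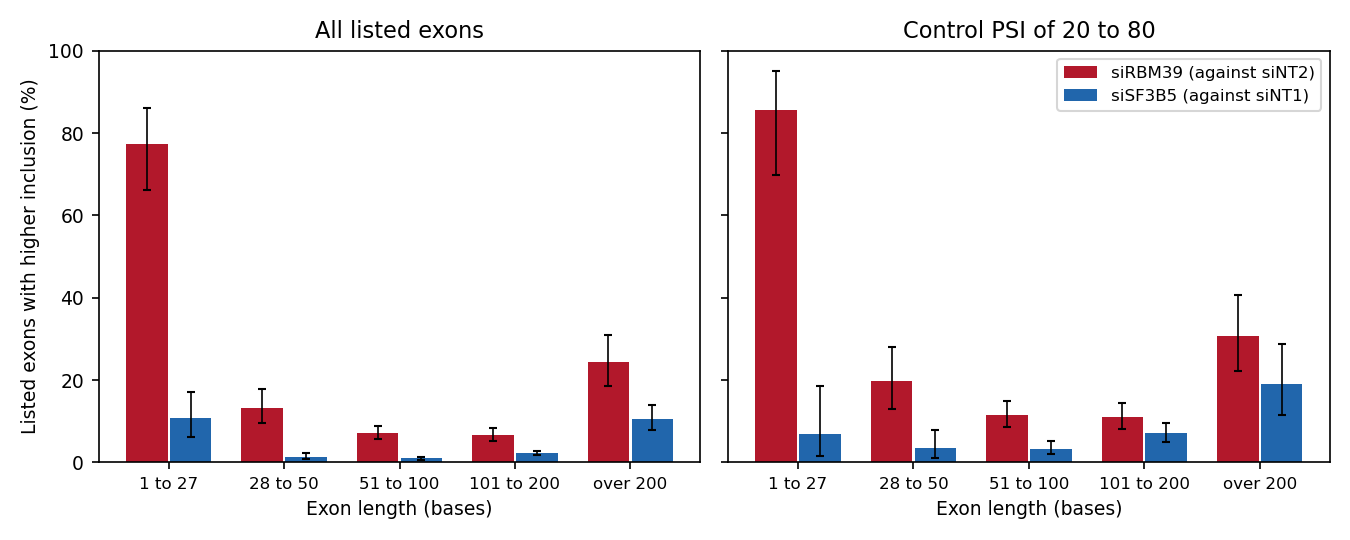
Share of listed exons with higher inclusion (vertical axis, %) by exon length in bases, for siRBM39 against siNT2 and siSF3B5 against siNT1, over all listed exons (left) and those with a control PSI of 20 to 80 (right); error bars are exact 95% intervals over events. Microexons stand at 77.3% for siRBM39 and 10.8% for siSF3B5.

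Of the 58 higher microexons, 51 had a length that is a multiple of 3 (87.9%), which keeps the reading frame, as did 7 of the 17 lower ones. CSNK1G3, a casein kinase 1, had the largest gain, its 24-base exon reaching 82.9 in siRBM39, against 17.6 in siNT2. The 27-base exon of CTAGE5, which helps large cargo leave the endoplasmic reticulum, was at 80.2 in siRBM39 and 24.8 in siNT2. CACNA2D1, an auxiliary subunit of voltage-gated calcium channels, had its 21-base exon at 55.6 in siRBM39 and 4.52 in siNT2.

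Further higher microexons, chosen for naming after their values were seen, lay in genes of varied function. The latrophilin adhesion receptors ADGRL3 and ADGRL1 each had a 15-base exon, at 60.6 and 58.8 in siRBM39, against 17.9 and 21.5 in siNT2. The kinesins KIF21A (21 bases) and KIF3A (9 bases) were at 81.6 and 91.9 in siRBM39, against 40.4 and 62.4 in siNT2. A 12-base exon of DNM2, the membrane-severing GTPase dynamin 2, was at 73.7 in siRBM39 and 48.3 in siNT2. TEAD1, a transcription factor of the Hippo pathway, had a 12-base exon at 53.3 in siRBM39 and 13.5 in siNT2.

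The lower microexons included a 10-base exon of HNRNPU, a nuclear matrix RNA-binding protein, at 29.015 in siRBM39 and 82.4 in siNT2. An 8-base exon of FLOT1, a membrane raft flotillin, was at 41.5 in siRBM39 and 82.8 in siNT2. The microexons of IL17RB, a cytokine receptor subunit, and of HACD1, a dehydratase of fatty acid elongation, stood at 51.1 and 56.6 in siRBM39, against 88.9 and 92.1 in siNT2. Neither length is a multiple of 3. The 27-base exon of GRIPAP1 was at 63.1 in siRBM39 and 93.4 in siNT2.

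The first base differed between lower and higher exons. It was read from the single annotated internal exon of the event's length in its gene, which existed for 1878 of 2471 lower exons (76.0%) and 195 of 295 higher exons (66.1%). Cytosine came first in 91 of the 1878 lower exons (4.85%; exact 95% interval 3.92 to 5.92), in 81 of the 195 higher exons (41.5%; 34.5 to 48.8) and in 15.02% of 38463 annotated internal exons of the same genes. The annotated exons, here and below, are only those whose length is unique in their gene. Adenine came first in 34.7% of the lower exons, 20.5% of the higher ones and 26.5% of the annotated ones. For guanine the shares were 50.6% of lower, 21.0% of higher and 46.8% of annotated exons. This comparison was made after the values were seen.

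Both shares of matched exons lie under 80%, so as statements about every listed exon they are void and they hold for matched exons. When exons with several annotated candidates of their length were added, each candidate with equal weight, values existed for 85.2% of lower exons, of which 5.19% began with cytosine. For higher exons they existed for 74.2%, still under 80%, and 39.0% of those began with cytosine.

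Read the other way, 81 of 172 matched exons that begin with cytosine were higher in siRBM39 (47.1%; 39.5 to 54.8). Among exons that begin with thymine the share was 15.2% (33 of 217), with adenine 5.78% (40 of 692) and with guanine 4.13% (41 of 992). The contrast was present at a siNT2 PSI of 50 to 80, the only control level divided alike for lower and higher exons. Elsewhere the levels differ between the directions and give no level-by-level contrast. Cytosine-first exons made up 5.16%, 6.94%, 4.94% and 2.81% of lower exons with a siNT2 PSI below 50, of 50 to 80, of 80 to 95 and of at least 95. Among higher exons they made up 41.9%, 43.9% and 40.3% of those below 20, of 20 to 50 and of 50 to 80, and 1 of the 5 at 80 or more.

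By size of fall, cytosine-first exons were 4.99% of matched exons that fell by 15 to 20 points, 5.80% at 20 to 30, 3.86% at 30 to 40 and 1.80% (3 of 167) at 40 or more. Adenine-first exons were 31.1%, 34.3%, 40.7% and 41.9% of the same classes. The first base of the exon downstream of the listed one was cytosine in 12.9% for lower exons and 17.4% for higher exons, closer to the annotated 15.02%. In the higher microexons cytosine came first in 15 of 48 matched (31.3%), and in 66 of 147 higher exons over 27 bases (44.9%).

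Examples of cytosine-first exons with higher inclusion, chosen after their values were seen, were a 51-base exon of FHOD3, an actin-assembling formin, at 83.0 in siRBM39 and 44.4 in siNT2, and a 60-base exon of CHIC1 at 86.4 in siRBM39 and 48.8 in siNT2. In BIN1, a membrane-bending protein of endocytosis, a 129-base exon was at 84.6 in siRBM39 and 53.0 in siNT2. The splicing regulator RBM41 had a 72-base cytosine-first exon at 70.8 in siRBM39 and 39.6 in siNT2. The other 91 of the 172 were lower. SLC35G1 and MPDU1, for example, had cytosine-first exons with lower inclusion, at 22.4 and 38.5 in siRBM39, against 76.0 and 91.2 in siNT2.

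**Figure D4:**
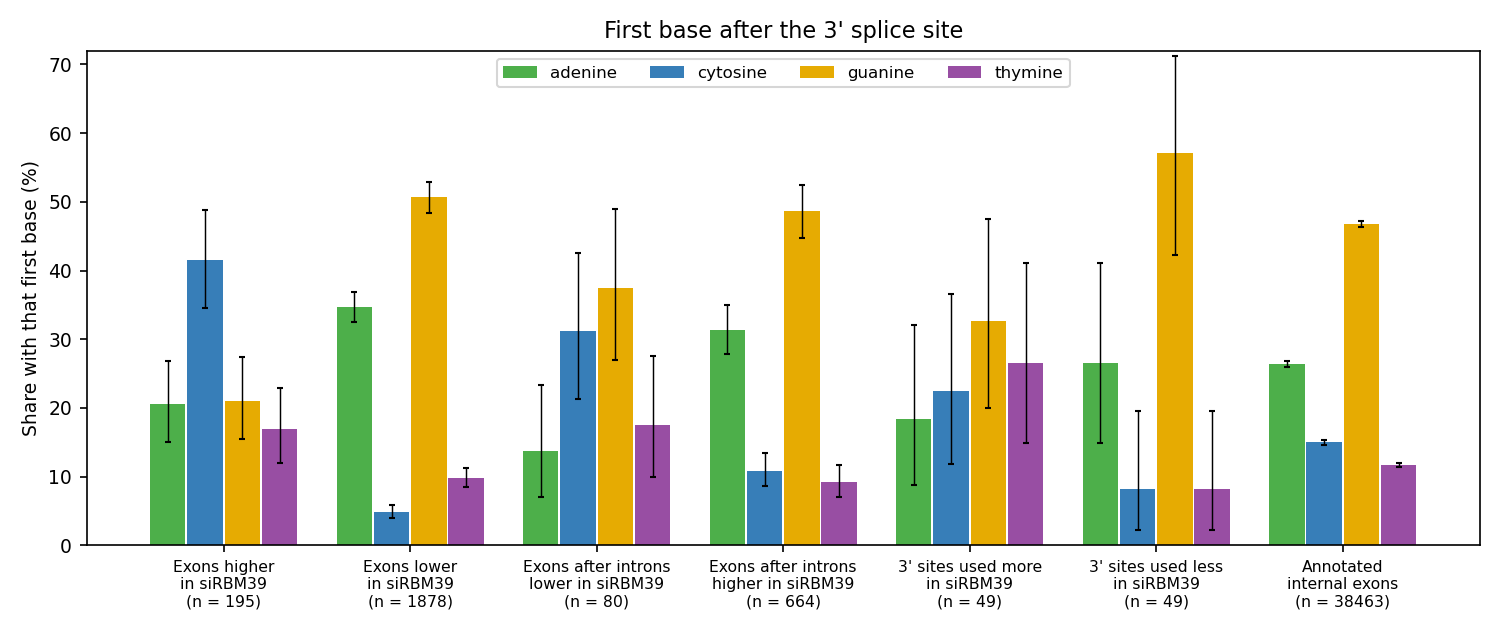
Share (vertical axis, %) of exons or 3' splice sites with each first base after the intron, for the exons, introns and alternative 3' sites listed for RBM39 depletion and for annotated internal exons of the same genes; error bars are exact 95% intervals over events. Cytosine stands at 41.5% in exons higher in siRBM39, 4.85% in exons lower in siRBM39 and 15.02% in annotated exons.

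Introns gave the same contrast at their own 3' splice sites. The exon after the intron could be read for 664 of the 700 introns retained more and 80 of the 82 retained less. It began with cytosine after 72 of the 664 (10.8%; 8.58 to 13.5) and after 25 of the 80 (31.3%; 21.3 to 42.6). It began with adenine after 31.3% of introns retained more and 13.8% of those retained less. Cytosine thus had the larger share both after introns retained less and at exons included more.

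Alternative 3' splice sites allow the comparison within a gene. In 49 of 92 events with 2 sites whose second site was listed as used more, a single annotated pair of exons differed by the event's length, reading the site of length 0 as that of the shorter exon. The site used more was followed by cytosine in 11 of 49 pairs and the site used less in 4 of 49. Thymine followed 13 and 4 of these sites (26.5% and 8.16%). In 21 pairs the site used more was followed by a pyrimidine and the site used less by a purine, and in 5 pairs the reverse held. Only events whose second site was used more were paired, so the site used more is that of the longer exon in every pair. Events with 2 sites whose site of length 0 was used more, as in RNF138 and DYNC2H1, were listed too but were not paired. Within the 49 pairs, the position of a site and its use therefore cannot be told apart. In the SRSF3 table, with 25 such pairs, cytosine followed 4 sites used more and 2 used less, and thymine 8 and 3. In the SF3B5 table, with 78 pairs, cytosine followed 16 sites used more and 15 used less, and thymine 8 of each. Since 43 of the 92 events had no such pair, these counts describe the matched pairs.

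In the other siRNA comparisons, each with its own values, cytosine shares of matched exons lay between 12.4% and 19.3%. Cytosine came first in 14.6% of exons lower and 18.2% of exons higher in siSF3B5, each against siNT1. The shares were 17.3% of lower and 12.4% of higher exons in siSRSF1, 16.6% and 14.6% in siSRSF2, and 18.3% and 14.0% in siSRSF7. In siSRSF3, set against the same siNT2 samples as siRBM39, they were 17.3% of lower and 19.3% of higher exons. The short list for the Aurora-A inhibitor MLN8237 against its solvent DMSO had cytosine first in 4 of 43 lower (9.30%) and 13 of 47 higher exons (27.7%). Of cytosine-first exons in the SF3B5 table, 1.42% were higher, and 0.919% of guanine-first ones.

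Lost exons were short. Their median length was 98 bases (95% interval 96 to 100) over all 2471, gained exons had a median of 80 (72 to 90) over all 295, and annotated internal exons of the same genes 125. The annotated exons were limited to lengths unique in their gene, and the listed exons were not. Lower exons of the SF3B5 table had a median of 92 bases, and lower exons in siSRSF3 one of 146 bases. Among matched exons the median GC content was 49.0% for lower and 48.8% for higher exons. Flanking introns were taken as the shortest annotated ones. The introns before and after lost exons had medians of 1219 and 1244 bases, near the annotated 1205 and 1184. Gained exons had longer flanking introns, with medians of 1651 and 2069 bases. Medians for gained exons of the other siRNA tables also lay above the annotated ones. For both introns in siSF3B5 and the intron before the exon in siSRSF3, the 95% interval included the annotated median. Their medians were 1722 and 1361 bases in siSF3B5, 1519 and 1502 in siSRSF3, and 1914 and 1910 in siSRSF1. In siSRSF2 they were 1601 and 1712 bases, and in siSRSF7 2370.5 and 2076.

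A length that is a multiple of 3 was found in 1091 of the 2471 lower exons (44.2%; 42.2 to 46.1), in 155 of the 295 higher exons (52.5%; 46.7 to 58.4) and in 37.9% of annotated internal exons with a length unique in their gene. Without microexons the shares were 43.9% of higher and 44.2% of lower exons, so the difference between higher and lower exons was then reversed and small. Among matched coding exons, 707 of 1549 lower ones (45.6%) and 90 of 124 higher ones (72.6%) kept the frame, beside 39.4% of annotated coding exons. These coding shares include microexons and were not computed without them. Higher matched coding exons kept the frame to a like extent in the other siRNA tables for SRSF proteins, at 70.9% in siSRSF3, 68.75% in siSRSF2, 67.3% in siSRSF1 and 75.8% in siSRSF7.

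Introns retained more had a median PSI of 37.99 in siRBM39, against 15.1 in siNT2. The non-targeting groups also differed for these introns: over 208 introns that were also listed against siNT1, siNT2 minus siNT1 had a median of -6.02 points. The siNT2 and siNT1 values were part of what listed these introns, so the listing bears on this median. The part of this difference in the intron counts was not tested. Introns retained more had a median length of 571 bases (467 to 663), and 37.1% exceeded 1000 bases. In the SF3B5 table introns retained more had a median of 260 bases (232 to 288) and 18.8% exceeded 1000. The medians were 284 bases in siSRSF3, 353 in siSRSF2, 662 in siSRSF7 and 868 in siSRSF1, so the RBM39 value lay within the range of the other tables.

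MLXIPL, the glucose-responsive transcription factor ChREBP, retained an intron of 8398 bases (chr7:73607673-73616070, minus strand, GRCh38) at 59.0 in siRBM39 and 7.40 in siNT2. EXTL2, a glycosyltransferase of heparan sulfate synthesis, retained an intron of 5804 bases at 62.0 in siRBM39 and 11.4 in siNT2, and also used an alternative 3' site more, at 79.5 in siRBM39 and 22.2 in siNT2. The introns of TATDN3 and ADAL, an adenosine deaminase-like enzyme, stood at 53.8 and 54.7 in siRBM39, against 5.45 and 8.41 in siNT2. STRADA, the pseudokinase that activates the tumour suppressor kinase LKB1, retained a 253-base intron at 73.4 in siRBM39 and 28.7 in siNT2 and gained the 58-base exon shown above, at 93.2 in siRBM39 and 51.3 in siNT2.

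Of the 82 introns retained less, the largest fall was in H2AFV, which encodes a variant of histone H2A.Z, with 15.5 in siRBM39 and 57.8 in siNT2. RSRP1, an arginine- and serine-rich protein, and PRPF4B, a kinase of the spliceosome, had introns at 10.3 and 24.4 in siRBM39, against 50.2 and 59.2 in siNT2. CDC42SE2 was at 23.9 in siRBM39 and 58.9 in siNT2, and TMEM25 at 45.3 in siRBM39 and 79.5 in siNT2. The RSRP1 and TMEM25 introns are followed by a cytosine, the H2AFV and CDC42SE2 introns by an adenine and the PRPF4B intron by a guanine.

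Among alternative 3' splice sites, RNF138, a ubiquitin ligase of DNA repair, had the largest rise, at 87.7 in siRBM39 and 15.4 in siNT2. DYNC2H1, the heavy chain of ciliary dynein, was at 79.3 in siRBM39 and 9.56 in siNT2. A site of DAAM1, a formin, that lies 3 bases from its neighbour was used in all transcripts of siRBM39 (PSI of 100) and at 39.3 in siNT2. Of 203 listed 3' sites other than the site of length 0, 106 differed from it by a multiple of 3 (52.2%), and 8 by exactly 3 bases. For 5' sites the count was 17 of 66 (25.8%). MORF4L1, a chromodomain protein of histone acetyltransferase complexes, led the 5' sites at 58.5 in siRBM39 and 4.76 in siNT2, followed by NDUFAF7, an assembly factor of respiratory complex I, at 52.1 in siRBM39 and 9.92 in siNT2.

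Events gathered in some genes. At least 2 exons were lower in 462 genes and at least 4 in 36. Of the 1878 matched lower exons, 408 (21.7%) directly neighboured another lower exon in a transcript, in 175 genes. Of 527 genes with an intron retained more, 161 also had a lower exon, beside 1789 of all 2594 listed genes. A gene is listed only through some event, and these 527 already are through an intron. The shares are therefore shaped by the listing and do not show whether exon loss and intron retention go together. Of 51 matched introns that touch a matched lower exon, 39 were retained more, beside 700 of all 782 listed introns.

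NBEAL2, a platelet granule protein, had 16 events. Its 7 exons ranged from 61.3 to 80.1 in siRBM39 (median 67.9), against 86.3 to 97.6 in siNT2 (median 92.6), and its 7 introns from 30.7 to 69.5 in siRBM39, against 8.92 to 43.2 in siNT2. MPP3, a membrane scaffold of cell junctions, lost 8 exons, at 64.2 to 77.7 in siRBM39 and 88.7 to 96.1 in siNT2, and had no other event. PHYKPL, a phospholyase, likewise lost 7 exons, at 23.6 to 47.6 in siRBM39 and 49.1 to 74.4 in siNT2. MAN2C1, an alpha-mannosidase, instead retained 9 introns more, at 38.7 to 64.0 in siRBM39 and 11.1 to 41.4 in siNT2, with no exon listed. These ranges hold listed events only, each chosen by its own change, and say nothing of the genes' other exons and introns.

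By function, 266 of 1131 genes on 15 lists had an event, and 251 of their 272 exons were lower (92.3%, beside 89.3% over all listed exons). Over all listed introns, 89.5% were retained more. The shares of 89.3% and 89.5% are the reference for every list named below. The lists were chosen with earlier results of these data known, and their counts are descriptions. How many genes of each list were expressed was not measured here, so shares of genes with an event cannot be set against a share over all expressed genes. The DNA repair list had an event in 37 of 114 genes, with 51 of 52 exons lower, a median exon change of -22.5 points beside -21.4 for all listed exons, and 10 of 10 introns retained more. The chromatin modifier list had one in 40 of 121 genes, with 51 of 52 exons lower and 9 of 9 introns retained more. The spindle and centrosome list had one in 43 of 114 genes, with 40 of 42 exons lower. The ubiquitin ligase list had one in 47 of 140 genes, with 34 of 40 exons lower.

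**Figure D5:**
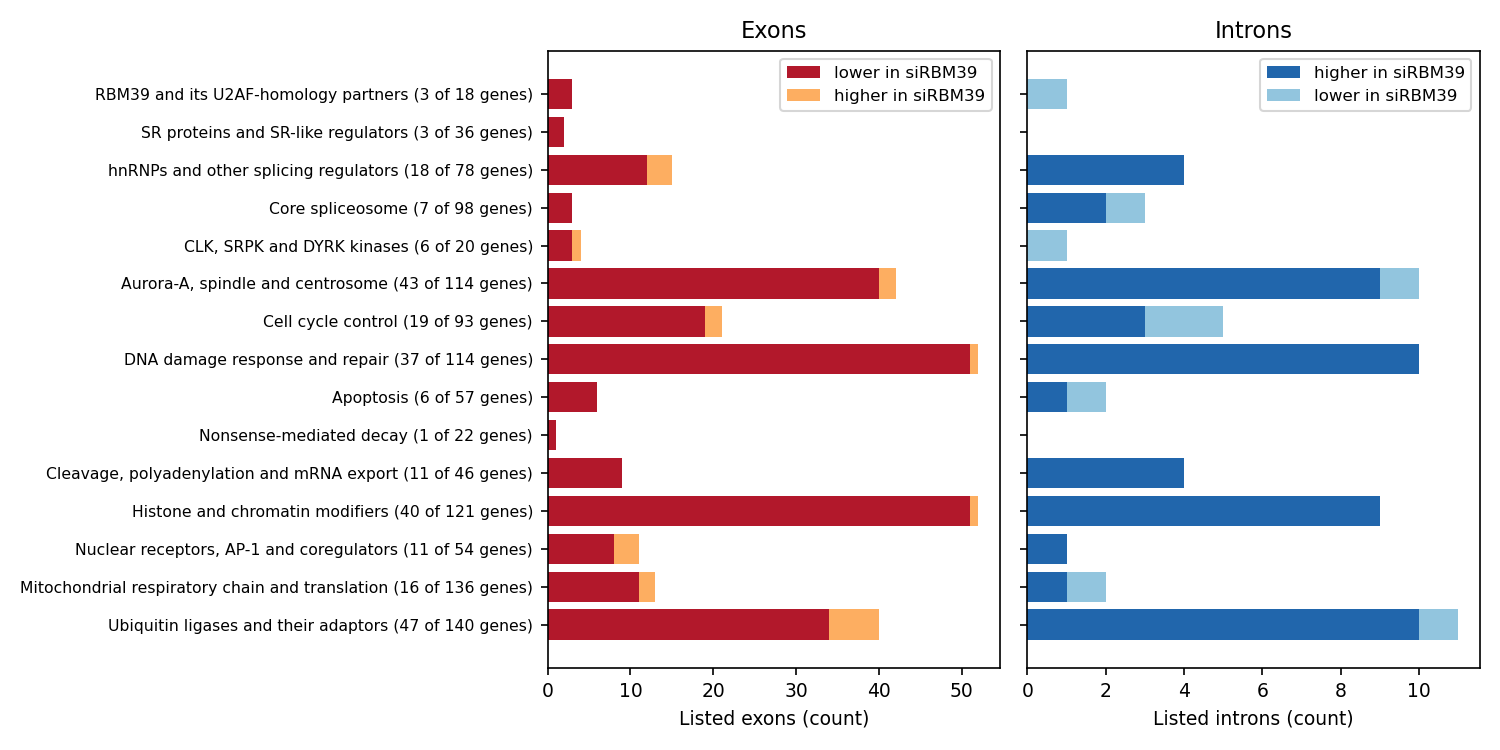
Number of listed exons (left) and introns (right) in the genes of each of 15 functional lists, split by direction in siRBM39 against siNT2, with the number of genes that have an event. The DNA repair and chromatin lists have 51 of 52 exons lower each; the lists of core spliceosome, SR protein and nonsense-mediated decay genes hold 3, 2 and 1 exons.

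In the DNA repair list, RAD54L, a motor protein of homologous recombination, had a 70-base coding exon at 48.0 in siRBM39 and 92.8 in siNT2. The checkpoint kinase CHEK2 had an 87-base coding exon at 45.8 in siRBM39 and 86.6 in siNT2. UIMC1, which brings repair proteins to ubiquitinated chromatin, had a 737-base exon at 26.8 in siRBM39 and 68.9 in siNT2. FANCA, a core subunit of the Fanconi anaemia complex, retained a 304-base intron at 48.9 in siRBM39 and 8.68 in siNT2.

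In the spindle and centrosome list, CEP135, a centriole scaffold, had a 66-base exon at 42.0 in siRBM39 and 97.9 in siNT2, and CENPE, the kinetochore kinesin, a 75-base exon at 27.8 in siRBM39 and 69.5 in siNT2. CEP164, a distal appendage protein, and HMMR, a spindle-binding protein, had exons at 18.6 and 13.3 in siRBM39, against 56.9 and 51.3 in siNT2. AURKA, which encodes Aurora-A, had no event. The cell cycle list had an event in 19 of 93 genes, with 19 of 21 exons lower. CDC25C, a phosphatase that activates CDK1, lost 3 exons of 34, 90 and 95 bases, at 27.5, 33.3 and 25.035 in siRBM39, against 69.5, 80.5 and 63.9 in siNT2, and CDC25B lost a 123-base exon, at 38.6 in siRBM39 and 75.1 in siNT2.

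Among chromatin genes, EP400, a remodelling ATPase, had an exon at 15.8 in siRBM39 and 70.0 in siNT2. The histone methyltransferase EHMT2 and EED, a subunit of the polycomb repressive complex that methylates histone H3, had exons at 27.7 and 58.0 in siRBM39, against 66.9 and 92.045 in siNT2. RNF146, a ligase that reads poly(ADP-ribose), and CBLB, a ligase that restrains receptor signalling, had exons at 15.2 and 24.8 in siRBM39, against 62.5 and 65.8 in siNT2. The apoptosis list was small, with 6 of 57 genes and all 6 exons lower, 3 of them in CASP9. CASP8 had a 65-base exon at 52.6 in siRBM39 and 78.4 in siNT2.

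Lists of splicing genes differed in how many genes had an event. Core spliceosome genes had one in 7 of 98, SR protein and related genes in 3 of 36, hnRNPs and other regulators in 18 of 78, and CLK, SRPK and DYRK kinases in 6 of 20, with 3 of 4 exons lower. Nonsense-mediated decay genes had one in 1 of 22, SMG1. The ATPase DDX46, which acts at branch point recognition, had a 43-base exon at 6.49 in siRBM39 and 42.5 in siNT2. PRPF8, the spliceosome's central scaffold, retained a 197-base intron at 23.2 in siRBM39 and 5.89 in siNT2. SRSF10 used an alternative 3' site more, at 45.0 in siRBM39 and 9.74 in siNT2.

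Of RBM39's own partners and relatives, 3 of 18 genes had an event. RBM23, its closest paralogue, had a 54-base exon at 61.6 in siRBM39 and 89.9 in siNT2. PUF60, which binds polypyrimidine tracts, had a 51-base exon at 19.1 in siRBM39 and 41.1 in siNT2. SF1, the branch point binding protein, had a 205-base exon at 15.6 in siRBM39 and 40.9 in siNT2, and the intron directly after it (chr11:64765519-64765950, minus strand, GRCh38) was retained less, at 17.9 in siRBM39 and 50.8 in siNT2. In the list of hnRNPs and other regulators, RBM26 had a 56-base exon at 15.2 in siRBM39 and 54.7 in siNT2. Genes of 3' end formation and mRNA export had an event in 11 of 46. Their 9 of 9 exons were lower and 4 of 4 introns retained more, beside 89.3% and 89.5% over all listed exons and introns. Among these, PAPOLA, the poly(A) polymerase, had a 63-base exon at 36.6 in siRBM39 and 82.4 in siNT2.

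In mitochondrial genes 16 of 136 had an event, and the median exon change was -16.0 points. MRPL33, a protein of the mitochondrial ribosome, was an example with a larger change, its 107-base exon being at 12.4 in siRBM39 and 44.8 in siNT2. Nuclear receptors and their coregulators had an event in 11 of 54 genes, with 8 of 11 exons lower. The orphan receptor NR2C2 had exons of 84 and 106 bases at 8.10 and 3.08 in siRBM39, against 35.0 and 25.9 in siNT2. MED23, a Mediator subunit, had an 18-base exon that was higher, at 29.5 in siRBM39 and 9.43 in siNT2.

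Of the 3946 events, 1576 were also listed for SF3B5 depletion, 39.9% of the RBM39 list and 13.3% of the SF3B5 list. The SF3B5 comparison has its own control, siNT1, from another set of libraries. Of 1526 shared exons and introns, 1461 had the same direction (95.7%; exact 95% interval 94.6 to 96.7), 1334 of them lower in both. Of all listed exons, 89.3% were lower in siRBM39 and 97.9% in siSF3B5, so this share depends on each list's own directions. Of the 12 largest exon falls, 9 are also in the SF3B5 table and all 9 were lower there, as were 9564 of all 9766 exons in that table. WSB1 stood at 31.9 in siRBM39 and 95.8 in siNT2, and at 29.6 in siSF3B5 and 95.3 in siNT1.

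Among shared events, microexons often had opposite directions. Of 23 microexons in both tables, 15 were higher in siRBM39 and 1 was higher in siSF3B5. An 18-base exon of MON2, a regulator of endosome traffic, was at 96.4 in siRBM39 and 64.2 in siNT2, but at 6.80 in siSF3B5 and 66.2 in siNT1. The 12-base exon of PTPRS, a receptor tyrosine phosphatase, was at 94.9 in siRBM39 and 56.6 in siNT2, but at 9.60 in siSF3B5 and 55.1 in siNT1. A 21-base exon of AFDN, the junction protein afadin, was at 74.7 in siRBM39 and 36.9 in siNT2, but at 5.21 in siSF3B5 and 44.4 in siNT1. These exons were chosen for their opposite directions after the values were seen. That the siRBM39 value lay above both controls and the siSF3B5 value below both follows from that choice. For AFDN siNT2 and siNT1 themselves differed by more than the median of exons.

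With SRSF2 depletion 694 events were shared, 504 of 672 exons and introns in the same direction. With SRSF7 depletion 452 were shared, 295 of 440 in the same direction (67.0%), and with SRSF1 depletion 561 were shared, 282 of 539 in the same direction (52.3%). In 203 of those 539, inclusion was lower in siRBM39 and higher in siSRSF1. Of all listed exons, 73.5% were lower in siSRSF2, 78.5% in siSRSF7 and 62.6% in siSRSF1. The same-direction shares depend on these directions and cannot be ranked against one another. SRSF3 depletion shared 779 events, but it also shares the siNT2 samples, so no direction share is given. The MLN8237 table shared 45 events, 19 of 41 exons and introns in the same direction (46.3%). Microexons were higher in 33 of 59 listed for siSRSF3, 26 of 44 for siSRSF1, 31 of 42 for siSRSF2 and 23 of 32 for siSRSF7.

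In no other table were 1546 of the 3946 events (39.2%). They made up 544 of the 782 introns (69.6%), 208 of the 304 alternative 3' sites (68.4%) and 732 of the 2766 exons (26.5%). Alternative sites are entered only as the site used more. An event that moved the other way elsewhere has another entry there and counts as absent. The share for alternative sites therefore cannot be compared with that for exons and introns. Introns made up 19.8% of the RBM39 list, and between 4.88% and 12.1% of each other list.

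The spread without depletion can be viewed only between control groups. Over 2129 listed events with a value in both non-targeting groups, siNT2 and siNT1 differed by a median of 2.95 points, and by more than 15 points in 79 events (3.71%). The median absolute change of the same events in siRBM39 against siNT2 was 22.8 points. For exons the median difference between the controls was 2.70 points and for introns 6.10 points. The siNT2 and siNT1 values were part of what listed these events, so the listing bears on these differences. The siNT2 and siNT1 samples belong to different sets of libraries in the labels, so set and siRNA cannot be told apart in this difference. Over the 45 events shared with the MLN8237 list, siNT2 and the solvent control DMSO differed by a median of 8.505 points. In 9 of these events (20%) they differed by more than 15 points. The DMSO samples come from another set and had another treatment, and these cannot be told apart either.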

How the data were processed

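Per the labels, stranded mRNA libraries were sequenced from HEK293T cells. The authors' deposited table gives, per the file headers, the mean percent spliced in (PSI, as a percent) of each group and their difference, a signed score in percentage points, taken here as siRBM39 minus siNT2. The build was hg38, and the tools included Bowtie and cutadapt, per the submitters' processing notes; tool versions, the listing rule and depth per PSI were not given in the sources used here. Event types were read from event identifiers. With group means alone, no test was made: shares have exact Clopper-Pearson 95% intervals and medians order-statistic 95% intervals, both describing events and covering counting error only.

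Exons and introns were matched to the single annotated internal exon or intron of the same length in the gene (GENCODE release 29, GRCh38), for 74.9% of exons and 95.1% of introns; 2508 of 2594 symbols matched directly and 39 through a synonym. Splice site and pyrimidine tract scores need intron sequence and were not analysed here; the first exon base was compared in their place, after the values were seen. Intervals were tested on simulated data. Matching was tried only on annotated exons looked up by their own length in their own gene. That check could not show a listed event matched to a wrong exon. The members and lists were chosen with earlier results of these data known. Named events were the 12 lowest and 12 highest exons over 27 bases, the 5 lowest and 5 highest microexons, the 8 highest and 5 lowest introns, the 5 highest alternative sites of each kind, and the largest changes in each gene list. Alternatives were a threshold of 25 points, 1 event per gene, a siNT2 PSI of 20 to 80 or of at least 80, exons over 27 bases, protein-coding transcripts and no synonyms. Analyses used Python 3.11.15, pandas 2.3.3, numpy 2.4.6, scipy 1.17.1 and matplotlib 3.10.9.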

Additional observations from a re-analysis of the deposited data

How the results depend on the processing

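No single share or median changed direction, and 24 of 46 alternative values for the main results stayed within the 95% interval of the value reported. With a threshold of 25 points, 90.5% of exons were lower, exons made up 76.5% of the list, 62.7% of higher exons had a length that is a multiple of 3, introns retained more had a median length of 785 bases, 96.7% of exons in listed genes were lower, and cytosine followed 45.8% of 24 introns retained less. With 1 event per gene, exons made up 73.1% of the list and the median absolute change was 22.9 points. For a siNT2 PSI of 20 to 80, 83.6% of exons were lower, 78.7% of introns were higher, the median absolute change was 22.4 points, cytosine came first in 6.33% of lower exons, and siNT2 and siNT1 differed by a median of 4.31 points. Among lower exons with a siNT2 PSI of at least 80, 41.6% had a length that is a multiple of 3. Over 27 bases, 91.2% of exons were lower, and such a length was found in 43.9% of higher and 44.2% of lower exons, which reverses their order. With at least 25 points in both tables, 37.4% of the RBM39 list was shared with SF3B5, 11.3% with SRSF3, 8.11% with SRSF1, 10.7% with SRSF2, 4.98% with SRSF7 and 0.142% with MLN8237. In 13 of 29 counts of listed genes with an event, the count moved by over 1.5 times, each time under the 25-point threshold. That threshold keeps 1406 of the 3946 events (35.6%), so under it such a count cannot rise. The cause of the other differences was not tested.

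No paired analysis was possible because only group means were used and no test was made; for the same reason no replicate could be left out in turn. The depth behind each PSI is unknown, so events resting on few reads cannot be told from well-covered ones. The list holds no event that changed by 15 points or less, so shares are of listed events and not of all exons.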
